A study of Mus musculus with 6 samples.

Results

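The tetraspanin superfamily was followed in the messenger RNA of mouse hematopoietic stem cells (HSCs). Its 31 members, 27 of them named Tspan or CD and 4 of them specialised genes of the retina and urothelium, were taken by gene symbol from a table of 55401 Ensembl genes. All 31 were found, and 24 of them reached 1 FPKM (fragments scaled to transcript length and to the size of the library) in at least 3 of the 6 libraries and were tested among 15723 genes. The HSCs were sorted from bone marrow as CD48-CD150+ cells within the lineage-negative, Sca-1+, c-Kit+ (LSK) compartment. Emp1-ko samples came from Emp1fl/fl,Tie2-Cre mice (n = 3) and Emp1-fl samples from Emp1fl/fl mice (n = 3), so both genotypes carried floxed Emp1 alleles and the Cre transgene was in the Emp1-ko mice alone. An effect of the transgene itself and one of Emp1 loss cannot be told apart in this design. The Tie2 promoter is active in endothelial as well as blood-forming cells, so the deletion was not limited to HSCs. No age is given, and it is not stated whether each library is 1 mouse, so the p-values reflect variation among 6 libraries that could be technical.

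Tetraspanins are small membrane proteins with several membrane-spanning segments, short tails inside the cell and a large outer loop held together by disulfide bonds. They act as organisers: each binds a few partner proteins (integrins, immunoglobulin superfamily proteins, proteases) and brings them together in membrane microdomains, and some direct their partners to the cell surface, to lysosomes or into extracellular vesicles. Emp1 is a member of the PMP22 and claudin family, which crosses the membrane in a similar way but is unrelated in sequence. In blood cells CD9, CD37, CD53, CD63, CD81, CD82 and CD151 serve as surface or granule markers, and in mice CD81 and CD82 have been linked to HSC quiescence.

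Emp1 itself stood at 0.58, 0.70 and 0.27 FPKM in the Emp1-ko libraries, against 3.25, 2.64 and 4.32 FPKM in the Emp1-fl libraries. The genotypes did not overlap, and the log2 difference of -1.53 (SE 0.25) had a limma adjusted p of 0.0577. Which part of Emp1 the floxed alleles remove is not stated. Of the genes that define the sort, Kit averaged 292 FPKM in Emp1-ko and 296 FPKM in Emp1-fl, Ly6a (Sca-1) 73.6 FPKM in Emp1-ko and 93.1 FPKM in Emp1-fl, and Slamf1 (CD150) 23.7 FPKM in Emp1-ko and 17.4 FPKM in Emp1-fl. Cd48, whose protein the gate excludes, was present as transcript at 35.7 FPKM in Emp1-ko and 36.8 FPKM in Emp1-fl. A list of 10 HSC genes, with Kit, Ly6a and Slamf1 among them, had 3 positive and 7 negative differences. Without overlap 1 was higher in Emp1-ko (Hoxb5) and 2 were lower (Ly6a and Hlf), against 8.91% and 13.2% of all tested genes. Hlf averaged 39.8 FPKM in Emp1-ko and 57.9 FPKM in Emp1-fl, and Hoxb5 5.34 FPKM in Emp1-ko and 3.75 FPKM in Emp1-fl. Whether the share of HSCs differed was not tested. Relative depth, estimated from low single-exon genes and set to 1 in Emp1-fl replicate 1, was 0.774, 0.956 and 1.86 in Emp1-ko replicates 1, 2 and 3, against 0.776 and 1.01 in Emp1-fl replicates 2 and 3. Absolute depth is unknown. Mitochondrially encoded genes took 5.41% to 6.98% of FPKM in Emp1-ko libraries and 4.06% to 4.80% in Emp1-fl libraries, and the part of this difference in the results below was not tested.

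The promoter windows of 4 members are shown first, because these members carry the contrasts described below: Tspan17 and Tspan14 belong to the same subgroup, as do the leukocyte tetraspanins Cd53 and Cd37, and within each pair the means of the genotypes differed in opposite directions. Each window holds 250 bases before and 50 after a RefSeq start on GRCm38.p6, written 5′ to 3′ on the strand of the gene. Cd53 lies at chr3:106790100-106790399 (minus strand), Cd37 at chr7:45238790-45239089 (minus), Tspan17 at chr13:54789155-54789454 (plus) and Tspan14 at chr14:40966847-40967146 (minus). Capitals mark matches, on either strand and counted also where they overlap, to any of 8 searched motifs: the GC box GGGCGG, the TATA box TATAAA, the CCAAT box, the PU.1 core GAGGAAGT, the RUNX core TGTGGT, the GATA core AGATAA, the E-box CACGTG and the AP-1 motif TGANTCA.
Cd53: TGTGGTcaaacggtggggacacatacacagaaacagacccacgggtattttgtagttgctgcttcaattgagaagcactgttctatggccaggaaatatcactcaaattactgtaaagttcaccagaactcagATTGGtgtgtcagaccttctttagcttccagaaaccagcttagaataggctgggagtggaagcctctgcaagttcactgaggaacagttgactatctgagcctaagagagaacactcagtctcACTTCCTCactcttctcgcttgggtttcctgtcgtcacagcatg
Cd37: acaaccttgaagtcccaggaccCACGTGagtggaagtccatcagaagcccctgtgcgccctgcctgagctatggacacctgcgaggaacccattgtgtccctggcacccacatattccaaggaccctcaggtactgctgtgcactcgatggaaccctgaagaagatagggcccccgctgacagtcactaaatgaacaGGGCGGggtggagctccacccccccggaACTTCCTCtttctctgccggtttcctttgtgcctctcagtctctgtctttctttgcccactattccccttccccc
Tspan17: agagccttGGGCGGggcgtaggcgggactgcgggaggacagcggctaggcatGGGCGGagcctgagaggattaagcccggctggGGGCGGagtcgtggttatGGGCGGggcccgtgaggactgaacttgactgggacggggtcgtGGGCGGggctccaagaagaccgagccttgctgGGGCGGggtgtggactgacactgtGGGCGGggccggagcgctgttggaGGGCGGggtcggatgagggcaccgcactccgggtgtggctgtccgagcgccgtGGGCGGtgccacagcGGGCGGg
Tspan14: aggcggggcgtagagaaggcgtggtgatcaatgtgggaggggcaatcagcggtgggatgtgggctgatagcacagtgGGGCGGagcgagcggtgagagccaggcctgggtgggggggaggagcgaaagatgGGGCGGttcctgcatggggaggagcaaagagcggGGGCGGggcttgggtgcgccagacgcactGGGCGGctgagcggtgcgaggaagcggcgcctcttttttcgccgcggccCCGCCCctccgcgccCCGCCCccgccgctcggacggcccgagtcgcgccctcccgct
The windows of the TspanC8 pair were alike in composition, with 72.0% GC and 10 GC boxes in Tspan17 and 72.3% GC and 6 GC boxes in Tspan14. Cd53 (46.3% GC) and Cd37 (57.7% GC) each held 1 PU.1 core, 6 bases after the start in Cd53 and 25 bases before it in Cd37. Of all 32851 windows of this length, 35.7% held a GC box and 3.2% a PU.1 core, and of the 39 windows of the 29 tetraspanins that have one, 17 held a GC box and 4 a PU.1 core. Tspan14 has another annotated start, whose window held no GC box and 1 PU.1 core. Further matches were a RUNX core and a CCAAT box in Cd53 (16.8% and 37.4% of all windows) and an E-box and a GC box in Cd37 (7.15% of all windows for the E-box). No TATA box, GATA core or AP-1 match was present in the 4 windows, against 13.6%, 11.2% and 7.81% of all windows. A match is a description of the letters, not a binding site.

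HSCs held a broad tetraspanin repertoire with a steep order of levels. In each genotype 8 members averaged above 100 FPKM, and 15 averaged at least 10 FPKM in at least 1 genotype. Cd81 was the highest, with 428.6, 360.3 and 432.2 FPKM in Emp1-ko libraries and 401.7, 403.0 and 353.1 FPKM in Emp1-fl libraries, a mean above that of 98.5% of tested genes in Emp1-ko. After it came Cd63, Tspan32, Tspan13, Tspan4, Cd9, Cd53 and Tspan3 in Emp1-ko HSCs, while in Emp1-fl HSCs Cd37 took the place of Cd53 among the 8. Within each of the 6 libraries Cd81 was above Cd63, by 46.8, 0.23 and 13.4 FPKM in Emp1-ko libraries and by 106.9, 158.2 and 65 FPKM in Emp1-fl libraries. The ranges of Tspan13 and Tspan4 overlapped across libraries in both genotypes. The summed FPKM of the 31 genes was 2218, 2143 and 2336 in Emp1-ko libraries, against 2089, 1957 and 1905 in Emp1-fl libraries, or 0.297% ± 0.0174 of all FPKM in Emp1-ko and 0.273% ± 0.00890 in Emp1-fl (SD, n = 3 each). These are bulk samples, so fewer cells with a transcript and less RNA per cell cannot be told apart.

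**Figure D1:**
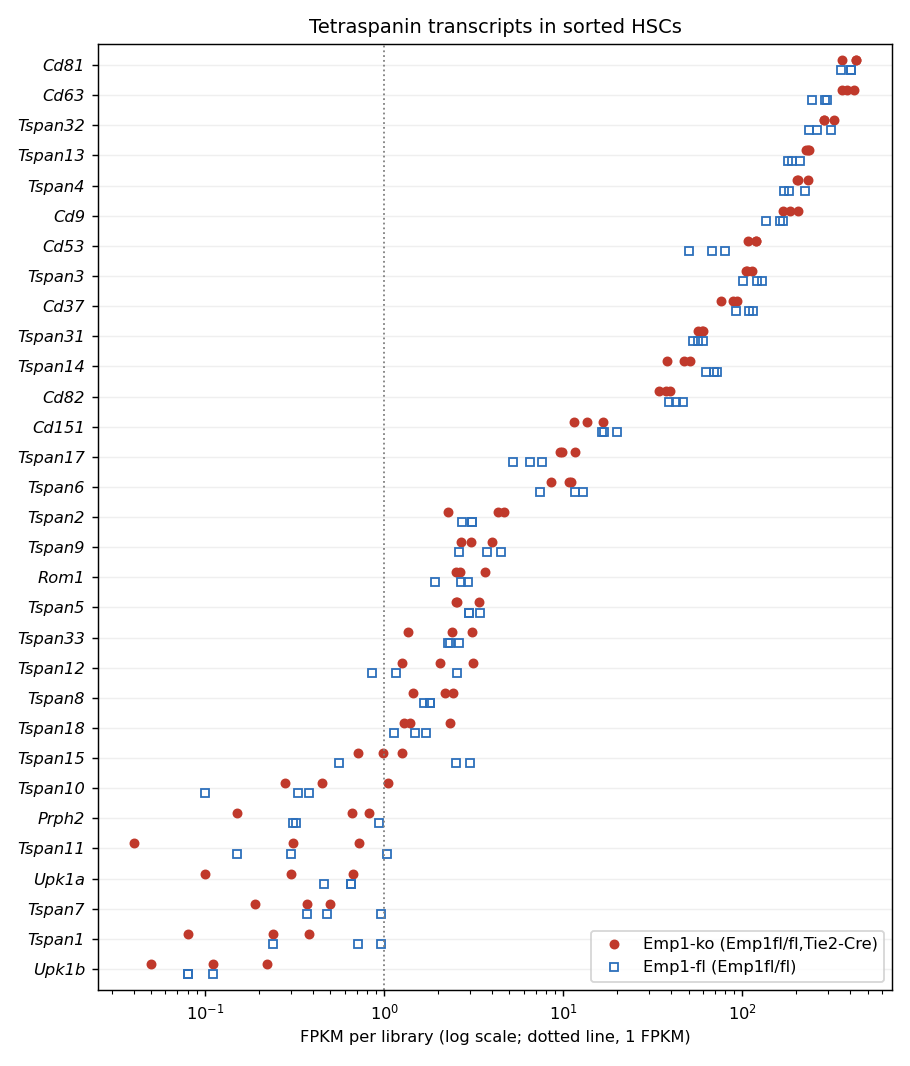
FPKM of the 31 tetraspanins in each library on a log axis, with filled circles for Emp1-ko and open squares for Emp1-fl. Cd81 is at the top with 353.1 to 432.2 FPKM, the 7 lowest genes (Tspan10 to Upk1b) do not exceed 1.05 FPKM, and among the 24 tested genes circles and squares overlap in 18.

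At the other end, 7 members did not pass the filter on low values: Tspan1, Tspan7, Tspan10, Tspan11, Prph2, Upk1a and Upk1b. Their values ran from 0.04 to 1.05 FPKM in Emp1-ko libraries and from 0.08 to 1.03 FPKM in Emp1-fl libraries. Prph2, a structural protein of photoreceptor discs, averaged 0.543 FPKM in Emp1-ko and 0.520 FPKM in Emp1-fl, and the uroplakins Upk1a and Upk1b, which form plaques of the urothelium, stood at 0.357 and 0.127 FPKM in Emp1-ko and 0.587 and 0.0900 FPKM in Emp1-fl. The photoreceptor gene Rom1 was the exception among these specialised genes, at 2.95 ± 0.618 FPKM in Emp1-ko and 2.503 ± 0.528 FPKM in Emp1-fl (SD, n = 3 each). For the 15 members with at least 10 FPKM the coefficient of variation ran from 1.91% to 19.0% in Emp1-ko (median 7.82%) and from 6.48% to 27.1% in Emp1-fl (median 11.1%), while for the low gene Tspan11 it was 96.0% in Emp1-ko and 95.4% in Emp1-fl.

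The comparison of genotypes asked whether loss of Emp1 came with other levels of tetraspanin transcripts. Among the 24 tested members 0 were higher and 0 were lower at a Benjamini-Hochberg adjusted p under 0.05 by limma on log2(FPKM + 1), where 0.159% of all tested genes were called higher and 0.108% lower. Without adjustment 4 members with a higher and 2 with a lower mean in Emp1-ko had p under 0.05, against 6.5% and 9.72% of all tested genes. In 6 members the genotypes did not overlap: Cd53, Cd63, Cd9, Tspan13 and Tspan17 were higher in each Emp1-ko library, and Tspan14 was lower. Those 5 of 24 stand beside 8.91% of all tested genes without overlap and higher, and the 1 of 24 beside 13.2% without overlap and lower. The median log2 difference of the 24 members was 0.096 (14 positive, 10 negative), that of all tested genes -0.046 (6773 positive, 8950 negative). The median of the members moved by over 1.5 times to 0.035 without Emp1-ko replicate 1, 0.046 without Emp1-ko replicate 2, 0.039 without Emp1-fl replicate 3, 0.052 at pseudocount 5, 0.058 after rescaling to TPM (all genes -0.093) and 0.054 with quantile normalization (all genes -0.00088). With quantile normalization the signs of Cd81, Tspan6 and Tspan33 turned.

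**Figure D2:**
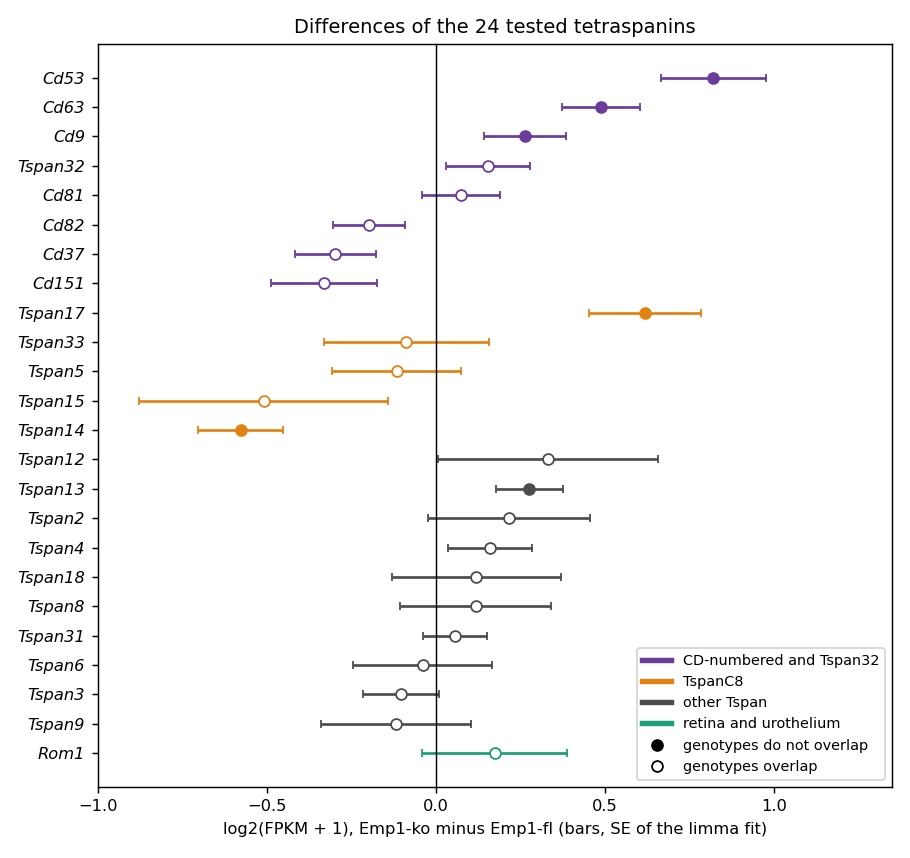
Difference of Emp1-ko minus Emp1-fl on the log2(FPKM + 1) scale for the 24 tested tetraspanins, with the standard error of the limma fit as bars, coloured by subgroup and filled where the genotypes do not overlap. Cd53, Tspan17 and Cd63 lie farthest to the right (0.82, 0.62 and 0.49) and Tspan14 farthest to the left (-0.58), and none passed the adjusted threshold.

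Of the 8 members of the CD-numbered group and Tspan32, 5 had a positive and 3 a negative difference. Cd53 (ENSMUSG00000040747, mm10 chromosome 3, 106759921 to 106790149), a tetraspanin of leukocytes, differed most. It stood at 119.6, 118.7 and 107.9 FPKM in Emp1-ko libraries, against 50.3, 68.0 and 79.6 FPKM in Emp1-fl libraries. Each Emp1-ko value was higher than each Emp1-fl value, and the mean was 74.9% higher. That is 0.82 (SE 0.16) in log2 units, and the limma adjusted p over all tested genes was 0.0739. It passed when testing was limited to genes averaging 5 FPKM or more (adjusted p = 0.0447) or to protein-coding genes whose exons span 400 bp or more (adjusted p = 0.0269), and the alternatives together gave 0.0269 to 0.259.

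Cd63 (ENSMUSG00000025351, chromosome 10, 128900989 to 128912822), the tetraspanin of late endosomes, lysosomes, secretory granules and extracellular vesicles, stood at 381.8, 360.0 and 418.8 FPKM in Emp1-ko libraries, against 294.8, 244.8 and 288.1 FPKM in Emp1-fl libraries. The genotypes did not overlap, and the mean was 40.2% higher in Emp1-ko (log2 difference 0.49, SE 0.11, limma adjusted p = 0.105). A processed pseudogene, Cd63-ps, was listed at 6.45 to 7.76 FPKM in Emp1-ko and 4.64 to 7.67 FPKM in Emp1-fl, so a small part of the reads of this sequence may have been assigned to either copy. Cd9 (chromosome 6, 125460266 to 125494791), abundant on megakaryocytes and platelets, had 184.4, 168.5 and 205.1 FPKM in Emp1-ko libraries, against 162.9, 134.6 and 167.5 FPKM in Emp1-fl libraries. Here the lowest Emp1-ko and the highest Emp1-fl library were less than 1 FPKM apart, and the log2 difference was 0.26 (SE 0.12, limma adjusted p = 0.328). An antisense gene that overlaps Cd9, Gm28809, reached at most 8.51 FPKM.

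Cd37, Cd82 and Cd151 had lower means in Emp1-ko, with overlapping libraries. Cd37, a leukocyte tetraspanin prominent on B cells, had 88.7, 92.9 and 75.7 FPKM in Emp1-ko libraries, against 109.4, 92.5 and 115.0 FPKM in Emp1-fl libraries (log2 difference -0.30, SE 0.12, limma adjusted p = 0.267). The overlap came from Emp1-ko replicate 2 and Emp1-fl replicate 2, which were nearly equal. Cd151, which binds the laminin-binding integrins, averaged 13.9 ± 2.65 FPKM in Emp1-ko and 17.7 ± 1.90 FPKM in Emp1-fl, and Cd82 37.0 ± 2.499 FPKM in Emp1-ko and 42.7 ± 3.67 FPKM in Emp1-fl (SD, n = 3 each). The log2 differences were -0.33 and -0.20, with limma adjusted p of 0.341 and 0.410. Cd81, linked in mice to HSC quiescence, and Tspan32, a hematopoietic tetraspanin that works with the platelet integrin, differed by 0.074 and 0.15 on the log2 scale and overlapped between genotypes. The sign of Cd81 turned with quantile normalization (-0.015).

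**Figure D3:**
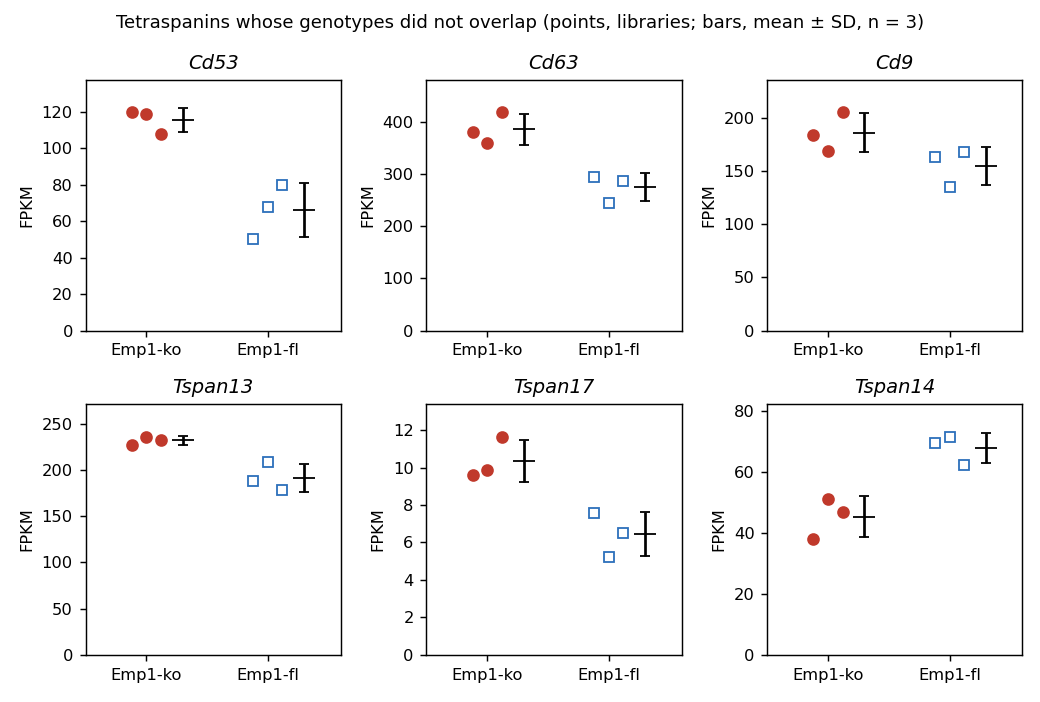
FPKM of the 6 tetraspanins whose genotypes did not overlap, with Emp1-ko at left and Emp1-fl at right of each panel, points for libraries and bars for the mean ± SD (n = 3). The gap is wide for Cd53, Cd63 and Tspan14 and narrow for Cd9, where 168.5 FPKM in Emp1-ko meets 167.5 FPKM in Emp1-fl.

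The TspanC8 subgroup (Tspan5, Tspan10, Tspan14, Tspan15, Tspan17 and Tspan33), named for the cysteines of its outer loop, binds the membrane protease ADAM10 and carries it out of the endoplasmic reticulum, and its members direct the protease to different substrates. In these HSCs the subgroup consisted mostly of Tspan14. Of its 6 genes 5 were tested, 1 with a positive and 4 with a negative difference (median -0.12). That gene (ENSMUSG00000037824, chromosome 14, 40906445 to 40966807) stood at 38.0, 51.1 and 47.1 FPKM in Emp1-ko libraries, against 69.7, 71.7 and 62.3 FPKM in Emp1-fl libraries. Each Emp1-ko library lay below each Emp1-fl library, and the mean differed by -33.1% of the Emp1-fl mean (log2 difference -0.58, SE 0.13, limma adjusted p = 0.0899). Among the protein-coding genes with exons of 400 bp or more the difference passed (adjusted p = 0.0430), and the alternatives together gave 0.0430 to 0.306.

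Tspan17 (ENSMUSG00000025875, chromosome 13, 54789377 to 54796776), which is close to Tspan5 and Tspan14 in the subgroup, differed in the other direction. It stood at 9.58, 9.87 and 11.64 FPKM in Emp1-ko libraries, against 7.57, 5.24 and 6.53 FPKM in Emp1-fl libraries, without overlap (log2 difference 0.62, SE 0.17, limma adjusted p = 0.134). Tspan5, Tspan15 and Tspan33 overlapped between genotypes. Tspan15, which promotes the cleavage of N-cadherin, averaged 0.983 ± 0.270 FPKM in Emp1-ko and 2.03 ± 1.30 FPKM in Emp1-fl, where replicate 1 was at 0.56 FPKM, below the other 2. Tspan5 averaged 2.82 FPKM in Emp1-ko and 3.13 FPKM in Emp1-fl, and Tspan33, known from erythroid cells, 2.28 FPKM in Emp1-ko and 2.40 FPKM in Emp1-fl. A processed pseudogene that overlaps Tspan5 on the other strand, Gm16060, reached at most 4.03 FPKM, above the highest Tspan5 value (3.44 FPKM).

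Within a library the ratio of Tspan14 to Tspan17, chosen after the values were seen, does not depend on the scaling of that library. It was 3.97, 5.18 and 4.05 in Emp1-ko libraries, against 9.20, 13.7 and 9.54 in Emp1-fl libraries. Tspan14 made up 72.5% ± 3.22 of the summed TspanC8 FPKM in Emp1-ko and 82.6% ± 1.70 in Emp1-fl, and Tspan17 16.7% ± 2.03 in Emp1-ko and 7.88% ± 1.54 in Emp1-fl (SD, n = 3 each). The sum of the 6 genes was 55.3, 68.5 and 63.6 FPKM in Emp1-ko libraries, against 83.7, 85.5 and 77.2 FPKM in Emp1-fl libraries. These values do not overlap and are a description, with no test of their own.

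**Figure D4:**
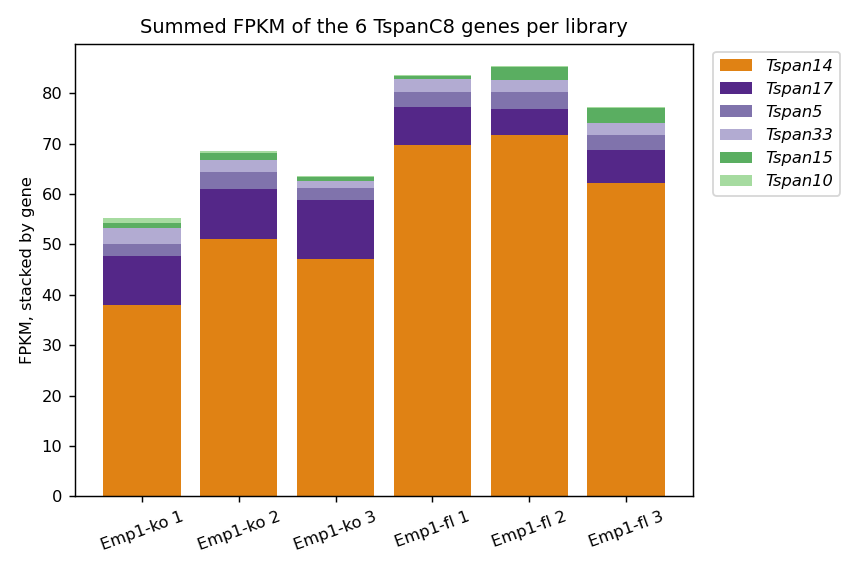
Summed FPKM of the 6 TspanC8 genes in each library, stacked by gene, with the Emp1-ko libraries at left and the Emp1-fl libraries at right. The Emp1-ko columns end at 55.3 to 68.5 FPKM and the Emp1-fl columns at 77.2 to 85.5 FPKM, and the Tspan17 segment is the thicker one in Emp1-ko.

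Among the other Tspan genes, 10 of 13 were tested, 7 with a positive and 3 with a negative difference, and 1 was without overlap. Tspan13 (chromosome 12, 36014557 to 36042500) had 227.1, 235.8 and 232.7 FPKM in Emp1-ko libraries, against 187.8, 208.4 and 178.5 FPKM in Emp1-fl libraries (log2 difference 0.28, SE 0.098, limma adjusted p = 0.219). The Emp1-ko libraries were close together, with a coefficient of variation of 1.91% against 7.98% in Emp1-fl. Tspan4, a structural protein of migrasomes, averaged 213 ± 16.6 FPKM in Emp1-ko and 191 ± 27.7 FPKM in Emp1-fl, and Tspan3 108 ± 4.81 FPKM in Emp1-ko and 117 ± 14.1 FPKM in Emp1-fl, both with overlap. Tspan31 averaged 58.7 ± 2.27 FPKM in Emp1-ko and 56.5 ± 3.67 FPKM in Emp1-fl. Their log2 differences were 0.16 for Tspan4, -0.10 for Tspan3 and 0.056 for Tspan31. The annotation places part of Tspan31 over Cdk4 on the other strand, which averaged 348 FPKM in Emp1-ko and 371 FPKM in Emp1-fl. The labels do not say whether the authors' counting used the strand, so reads of the shared bases cannot be told apart.

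The 9 tested members below 10 FPKM in both genotypes, among them Tspan2, Tspan5, Tspan8, Tspan9, Tspan12 and Tspan18, had log2 differences from -0.51 to 0.33, and each overlapped between genotypes. Tspan2, known from oligodendrocytes, averaged 3.74 ± 1.30 FPKM in Emp1-ko and 2.97 ± 0.211 FPKM in Emp1-fl, and Tspan8 2.02 ± 0.516 FPKM in Emp1-ko and 1.76 ± 0.0839 FPKM in Emp1-fl. Tspan9, known from platelets, averaged 3.22 ± 0.671 FPKM in Emp1-ko and 3.61 ± 0.952 FPKM in Emp1-fl. Tspan12, a co-receptor of the Norrin and Frizzled pathway in the retina, stood at 3.12, 2.06 and 1.25 FPKM in Emp1-ko libraries, against 0.85, 2.55 and 1.17 FPKM in Emp1-fl libraries, a spread that covers both genotypes. Tspan6, at 10.1 ± 1.42 FPKM in Emp1-ko and 10.6 ± 2.89 FPKM in Emp1-fl, had a log2 difference of -0.039 whose sign depended on the scaling and on single libraries.

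Several members sit beside one another in the genome, at like or unlike levels. Chromosome 7 holds 6 of the 31 genes and chromosome 6 holds 5. Cd151 and Tspan4 are 3767 bp apart on the same strand of chromosome 7, yet averaged 13.9 and 213 FPKM in Emp1-ko and 17.7 and 191 FPKM in Emp1-fl, with log2 differences of -0.33 and 0.16. Tspan32 and Cd81, 33095 bp apart on that chromosome, were both among the most abundant members. Tspan11 and Tspan9 lie 7419 bp apart on chromosome 6, which also carries Emp1, and Cd82 and Tspan18 lie 84606 bp apart on chromosome 2 with 37.0 and 1.67 FPKM in Emp1-ko and 42.7 and 1.44 FPKM in Emp1-fl.

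The genes of 4 groups that work with tetraspanins were read from the same fit, leaving out the tetraspanins themselves. In none of the 4 groups was a gene called higher or lower by limma over all genes. ADAM10 and its substrates had 10 of 15 genes tested, with a median log2 difference of -0.17 (2 positive, 8 negative), where an unadjusted p under 0.05 was reached by 0 genes with a higher and 2 with a lower mean (6.5% and 9.72% of all tested genes). Adam10 averaged 93.7 ± 15.4 FPKM in Emp1-ko and 76.5 ± 3.31 FPKM in Emp1-fl (log2 difference 0.28, SE 0.13, limma adjusted p = 0.318). It was without overlap only narrowly, with Emp1-ko replicate 1 at 78.84 FPKM and Emp1-fl replicate 2 at 78.80 FPKM. The means of the protease and of Tspan14, the most abundant TspanC8 gene, differed in opposite directions. The receptor Notch1, an ADAM10 substrate, averaged 3.72 ± 0.9996 FPKM in Emp1-ko and 6.90 ± 2.53 FPKM in Emp1-fl (log2 difference -0.72, limma adjusted p = 0.222), and the membrane-bound chemokine Cx3cl1 1.56 ± 0.490 FPKM in Emp1-ko and 3.41 ± 0.754 FPKM in Emp1-fl (-0.79, adjusted p = 0.156). Both were without overlap. Of the 10 tested genes 1 was higher and 3 were lower without overlap, beside 8.91% and 13.2% of all tested genes. The substrate Vcam1, at 25.5 ± 20.2 FPKM in Emp1-ko and 45.9 ± 14.8 FPKM in Emp1-fl, overlapped. The overlap came from Emp1-ko replicate 1, at 48.8 FPKM against 12.5 and 15.2 FPKM in replicates 2 and 3. Vcam1 and the macrophage marker C1qa ranked the 6 libraries in the same order, and the part of such cells in Vcam1 was not tested.

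Of the 21 membrane partners 18 were tested, 7 with a positive and 11 with a negative difference (median -0.044), and 1 was higher and 2 were lower when p under 0.05 was read without adjustment, near the 6.5% and 9.72% of all tested genes. Itga6, the laminin receptor subunit that binds Cd151, averaged 44.9 ± 3.01 FPKM in Emp1-ko and 35.5 ± 0.346 FPKM in Emp1-fl, without overlap (log2 difference 0.33, limma adjusted p = 0.154). The immunoglobulin superfamily gene Igsf8, a direct partner of CD9 and CD81, averaged 7.23 ± 1.04 FPKM in Emp1-ko and 9.95 ± 0.421 FPKM in Emp1-fl (-0.42, limma adjusted p = 0.219), and the fibronectin receptor subunit Itga5 14.98 ± 3.61 FPKM in Emp1-ko and 20.3 ± 1.80 FPKM in Emp1-fl (-0.44, adjusted p = 0.270). Igsf8 and Itga5 were also without overlap. Of the 18 tested partners 2 were higher and 2 lower without overlap, beside 8.91% and 13.2% of all tested genes. Ptgfrn, the other such partner of CD9 and CD81, was at 0.560 FPKM in Emp1-ko and 0.673 FPKM in Emp1-fl and was not tested. The peptidase Dpp4 averaged 15.02 ± 2.32 FPKM in Emp1-ko and 20.8 ± 5.77 FPKM in Emp1-fl, and the integrin subunits Itgb1 and Itga4 60.1 and 28.1 FPKM in Emp1-ko and 54.6 and 30.7 FPKM in Emp1-fl, all 3 with overlap.

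All 18 genes of extracellular vesicle formation were tested, 8 with a positive and 10 with a negative difference (median -0.058), where 3 with a higher and 4 with a lower mean had an unadjusted p under 0.05, beside 6.5% and 9.72% of all tested genes. Sdcbp, which encodes syntenin, an adaptor that binds CD63, averaged 557 ± 49.0 FPKM in Emp1-ko and 430 ± 2.26 FPKM in Emp1-fl (log2 difference 0.37, limma adjusted p = 0.148). Genes of the sorting machinery for membrane cargo differed in both directions. Hgs, which recognises ubiquitinated cargo, averaged 23.8 ± 1.07 FPKM in Emp1-ko and 34.5 ± 1.79 FPKM in Emp1-fl (-0.52, adjusted p = 0.0760), and the ATPase Vps4a 19.6 ± 1.41 FPKM in Emp1-ko and 27.5 ± 1.51 FPKM in Emp1-fl (-0.47, adjusted p = 0.105). Sdc1, a syndecan that syntenin binds, averaged 2.42 ± 0.306 FPKM in Emp1-ko and 6.82 ± 4.16 FPKM in Emp1-fl (-1.07, adjusted p = 0.172). Tsg101, which acts after Hgs in the same machinery and is named here after its values were seen, averaged 113 ± 12.7 FPKM in Emp1-ko and 89.9 ± 8.97 FPKM in Emp1-fl (0.32, limma adjusted p = 0.224). Chmp4b and Vps4b also had higher means in Emp1-ko, with overlap, while Pdcd6ip, without overlap, and Stam, with overlap, had lower means. In the 5 genes given with values, picked by smallest p or after their values were seen, the genotypes did not overlap. Of all 18 genes 3 were higher and 5 lower without overlap, beside 8.91% and 13.2% of all tested genes. Hgs passed in the fit limited to protein-coding genes with exons of 400 bp or more (limma adjusted p = 0.0407).

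Palmitoylation, the attachment of a fatty acid to cysteines, keeps tetraspanins together in the membrane. Of 24 transferases and thioesterases 22 were tested, 7 with a positive and 15 with a negative difference (median -0.077), where 1 with a higher and 5 with a lower mean had an unadjusted p under 0.05, beside 6.5% and 9.72% of all tested genes. Zdhhc2, a transferase known to act on CD9 and CD151, was at 0.477 ± 0.190 FPKM in Emp1-ko and 0.763 ± 0.0611 FPKM in Emp1-fl and was not tested. The transferase Zdhhc7 averaged 10.2 ± 0.772 FPKM in Emp1-ko and 15.1 ± 2.36 FPKM in Emp1-fl (log2 difference -0.52, limma adjusted p = 0.149), whereas Zdhhc20 averaged 34.6 ± 0.970 FPKM in Emp1-ko and 27.3 ± 0.554 FPKM in Emp1-fl (0.33, limma adjusted p = 0.151). Zdhhc16 averaged 37.2 ± 0.560 FPKM in Emp1-ko and 44.7 ± 1.44 FPKM in Emp1-fl (-0.26, limma adjusted p = 0.214), and Zdhhc8 3.41 ± 0.400 FPKM in Emp1-ko and 5.11 ± 0.684 FPKM in Emp1-fl (-0.47, adjusted p = 0.239). The genotypes did not overlap in these 4 genes, which were picked for the smallest p. Of the 22 tested, 2 were higher and 6 lower without overlap, beside 8.91% and 13.2% of all tested genes.

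**Figure D5:**
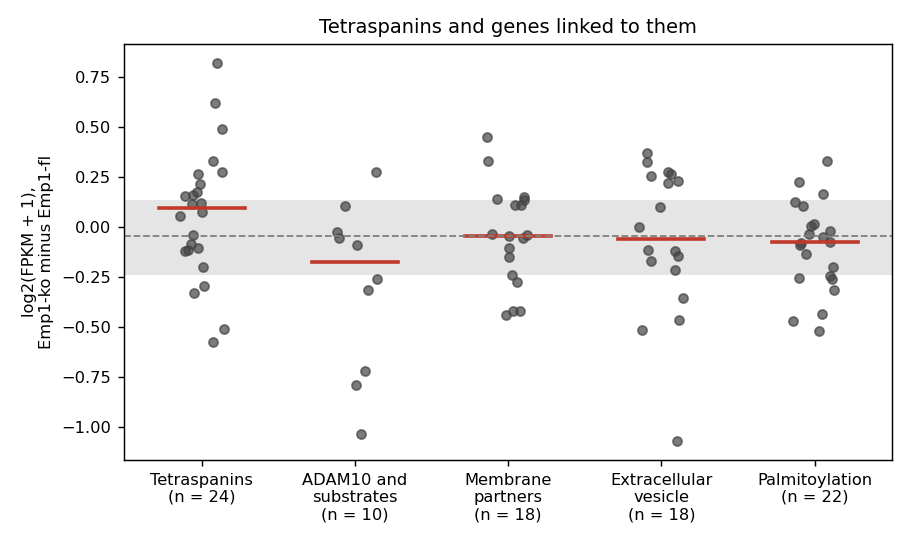
Log2 differences of Emp1-ko minus Emp1-fl for the tested tetraspanins and for the tested genes of the 4 related groups, 1 point per gene with a red line at the group median. The dashed line and grey band give the median (-0.046) and the quartiles (-0.24 and 0.13) of all 15723 tested genes, and the median of the tetraspanins (0.096) is the only one of the 5 above 0.

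Several tetraspanins are abundant in mature blood cells, so markers of such cells are given beside the values above. Among 8 monocyte and macrophage genes, 6 of 8 had a negative difference, and their summed level was 322 to 404 FPKM in Emp1-ko and 357 to 441 FPKM in Emp1-fl. The highest of them, Lyz2 and C1qa, averaged 264 and 37.3 FPKM in Emp1-ko and 278 and 67.0 FPKM in Emp1-fl, and Csf1r, without overlap, 3.81 FPKM in Emp1-ko and 8.77 FPKM in Emp1-fl. Csf1r was the only gene of the 8 without overlap, where 13.2% of all tested genes were lower without overlap. Among 8 megakaryocyte and platelet genes the sums were 606 to 987 FPKM in Emp1-ko and 699 to 913 FPKM in Emp1-fl, with Pf4 and Itga2b at 361 and 221 FPKM in Emp1-ko and 356 and 230 FPKM in Emp1-fl. Of these 8 genes 2 had a positive and 6 a negative difference (median -0.045). Gp1ba, which alone did not overlap, averaged 16.9 FPKM in Emp1-ko and 8.84 FPKM in Emp1-fl, where 8.91% of all tested genes were higher without overlap. Among 8 neutrophil genes the sums were 563 to 954 FPKM in Emp1-ko and 592 to 754 FPKM in Emp1-fl, with Prtn3 and S100a8 at 467 and 111 FPKM in Emp1-ko and 419 and 103 FPKM in Emp1-fl. In this list 5 genes had a positive and 3 a negative difference (Elane, Mpo and S100a9), and each gene overlapped between genotypes. The Emp1-ko means of Ngp, Camp and Ltf rested mostly on replicate 3. Sums of 8 erythroid genes were 699.6 to 779.5 FPKM in Emp1-ko and 607 to 937 FPKM in Emp1-fl, with Car2 and Car1 at 604 and 49.7 FPKM in Emp1-ko and 653 and 58.7 FPKM in Emp1-fl. Those of 8 endothelial genes were 75 to 113.9 FPKM in Emp1-ko and 83.0 to 95.4 FPKM in Emp1-fl, with Pecam1 and Tek at 47.0 and 21.9 FPKM in Emp1-ko and 45.0 and 21.3 FPKM in Emp1-fl. Among 8 genes of B and plasma cells, Xbp1 made up most of a sum of 169 to 250 FPKM in Emp1-ko and 169 to 204 FPKM in Emp1-fl, where Xbp1 and Cd79b averaged 166 and 33.2 FPKM in Emp1-ko and 133 and 34.3 FPKM in Emp1-fl, and Pax5 0.363 FPKM in Emp1-ko and 0.217 FPKM in Emp1-fl. The summed level of 8 T and NK cell genes did not overlap, at 268 to 377 FPKM in Emp1-ko and 198 to 265 FPKM in Emp1-fl, nearly all of it Nkg7 (313 FPKM in Emp1-ko and 217 FPKM in Emp1-fl). Cd4, also without overlap, averaged 0.930 FPKM in Emp1-ko and 4.78 FPKM in Emp1-fl, while Cd3d, Cd3g and Cd8a averaged below 1 FPKM in both genotypes. Of the 4 tested T and NK cell genes 1 was higher (Nkg7) and 1 lower (Cd4) without overlap, beside 8.91% and 13.2% of all tested genes. No marker was listed at 0 in all 6 libraries. The part of these cells in the tetraspanin values was not tested.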

How the data were processed

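The values were the authors' deposited FPKM for 55401 Ensembl genes in 6 libraries, with 2 decimals. Per the labels' protocols, RNA was amplified by Geo-seq and made into libraries with a transposase kit, and amplification from low input adds scatter. The submitters' processing notes name DESeq2, HTSeq, Cufflinks 2.1.1 and Bowtie 0.12.9 with build mm10 and do not say which step made the FPKM. Each value depends on its library's total, and no read counts were used. Symbols and positions came from GENCODE M21 on GRCm38, which matched 55141 identifiers. Genes that reached 1 FPKM in 3 or more libraries (and Emp1) entered a fit of log2(FPKM + 1) by limma 3.58.1 under R 4.3.3 (trend and robust, two-sided, genotype as the only term, 4 residual degrees of freedom), and p-values were adjusted over all genes tested. Log2 differences on this scale understate changes of low genes. The procedure was tested on simulated data. The members, the lists and the rule for named genes (all members, up to 4 genes with the smallest p in each related list, partners chosen by name, and the 2 highest genes of each marker list) were chosen with earlier results of these data known. Zdhhc2, Cdk4, Tsg101, Chmp4b, Vps4b, Pdcd6ip and Stam lie outside that rule and were picked after their values were seen. The same holds for the markers Slamf1, Hlf, Hoxb5, Csf1r, Gp1ba, Pax5, Cd3d, Cd3g, Cd8a, Elane, Mpo, S100a9, Ngp, Camp and Ltf. Relative depth was the most frequent FPKM ratio of single-exon genes of 600 to 1500 bp under 0.5 FPKM. Promoter windows came from RefSeq (GRCm38.p6), and 29 of 31 members matched. Alternatives covered the pseudocount, filter, scaling, weights, the block and each library left out.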

Additional observations from a re-analysis of the deposited data

How the results depend on the processing

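Over 16 alternative fits, the 6 tetraspanins without overlap kept their direction, which the lack of overlap fixes for most of these settings. The count of called tetraspanins, 0 in each direction, was 1 higher with a mean of at least 5 FPKM (Cd53), and 1 higher and 1 lower among protein-coding genes of at least 400 bp (Cd53 and Tspan14), where 1 vesicle gene (Hgs) was also called lower. These filters test fewer genes (10326 and 12105 in place of 15723). The median difference of the tested tetraspanins ran from 0.035 to 0.10 with 1 library left out. Over all genes, 25 higher and 17 lower calls became 14 higher at pseudocount 0.1, 6 and 9 at pseudocount 5, 2 and 3 without a filter, 46 and 58 with a mean of at least 5 FPKM, 11 higher after rescaling to TPM, 15 and 9 with quantile normalization, 70 and 142 among protein-coding genes of at least 400 bp, 45 lower with array weights, and 5 and 3 without trend and robust estimation. With 1 library left out there were 3 to 20 higher and 2 to 20 lower calls: 3 and 2 without Emp1-fl replicate 1 and likewise without Emp1-fl replicate 2, 12 and 6 without Emp1-fl replicate 3, 6 and 5 without Emp1-ko replicate 2, and 9 and 5 without Emp1-ko replicate 3. The cause of these changes, those with the filters included, was not tested. Over all tested genes, same-numbered libraries correlated in their deviations at -0.11, 0.086 and -0.052, and Emp1-ko replicate 2 alone correlated best with its own number. Of the 2 highest neutrophil genes, S100a8 followed the replicate number, at 87.3, 33.1 and 212 FPKM in Emp1-ko and 87.3, 32.4 and 189 FPKM in Emp1-fl. Prtn3 did not, at 410, 491 and 501 FPKM in Emp1-ko and 468, 428 and 362 FPKM in Emp1-fl. Of the remaining neutrophil genes, S100a9, Ngp and Camp had the order of S100a8 in both genotypes, lowest in replicate 2 and highest in replicate 3. Elane, Mpo and Ltf did not have the same order in both genotypes. Whether same-numbered libraries shared a sort or a batch was not tested. With the replicate block 6 genes were higher and 2 lower, and 0 tetraspanins were called. Signs turned for small differences only. With quantile normalization Tspan6 was 0.046, Tspan33 0.033 and Cd81 -0.015, and with array weights Kit was 0.020. With 1 library left out Tspan6 ran from -0.26 to 0.11, Tspan9 from -0.29 to 0.019, Tspan18 from -0.049 to 0.22, Tspan33 from -0.26 to 0.13, Itga4 from -0.31 to 0.053, Itgb1 from -0.053 to 0.30 and Kit from -0.16 to 0.16. With 3 libraries a genotype and unknown absolute depth, values below 1 FPKM are the least certain.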
